A study of Mus musculus with 12 samples.

Results

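The 8 genes Myrf, Nkx6-2, Zfp488, Zfp536, St18, Zeb2, Yy1 and Carm1 encode regulators that act in or around the step at which an oligodendrocyte progenitor cell becomes a myelin-forming oligodendrocyte. They were chosen by name, with earlier results of these data known, so their standing among all genes below is description and not a test. Their data were the 618 peaks whose assigned gene was one of the 8, out of 269580 peaks on 23433 genes. The peaks mark H4K8ac, acetylation of histone H4 at lysine 8, measured by chromatin immunoprecipitation and sequencing. The cells were progenitors sorted from the forebrain of PdgfrαH2BEGFP mice, in which a green fluorescent nuclear reporter follows Pdgfra. Neonatal cells came from postnatal day 5 and adult cells from postnatal day 60, with 3 libraries at each age, and both ages carried the same genotype and no treatment. The comparison of the ages asks how this mark is placed in progenitors of different age. A reporter of this kind marks any cell with Pdgfra expression, and whether animals were pooled for a library is not given in the sources used here. The titles number the libraries as biological replicates, and the 6 input samples were not analysed here. In sorted bulk cells, fewer cells with the mark and less mark per cell cannot be told apart.

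Histone acetylation loosens the contact between histone and DNA and is found at promoters and enhancers of active genes. Myrf is a transcription factor made as a membrane protein that cuts itself and sends its N-terminal part to the nucleus, where it switches on myelin genes. Nkx6-2 is a homeodomain factor of maturing oligodendrocytes. Zfp488, Zfp536 and St18 are zinc finger proteins, of which Zfp488 works with Olig2. Zeb2 counters the BMP and Wnt signals that hold progenitors back. Yy1 recruits histone deacetylases to genes that block differentiation, and Carm1 is an enzyme that methylates arginines of histone H3.

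Neonatal replicates 1, 2 and 3 had 9097, 31189 and 7353 peaks, and adult replicates 72278, 72661 and 77002. Neonatal replicate 2 stood apart from the other neonatal libraries, so results are also given without it where it matters. All peaks together covered 7.73 times as many bases in adult as in neonatal libraries (ratio of means), and 18.5 times without neonatal replicate 2. Read numbers were not in the files. The background level implied by the authors' folds and p-values, a measure that grows with depth, was 2.64 to 2.96 fragments in neonatal and 1.77 to 3.53 in adult libraries. Among 8 progenitor markers, all had a promoter peak in every neonatal library and 7 or 8 in each adult library. In all 6 libraries 6 of them had one, as did 17.1% of the 23433 genes with a peak. Their peaks summed to 11.01, 38.01 and 4.87 kb in the neonatal and to 68.7, 70.2 and 90.1 kb in the adult libraries. Per covered Mb of the library, 0 of the 8 progenitor markers lay higher in every adult library and 5 in every neonatal library, against 8 and 0 of the 8 markers of mature oligodendrocytes. Over all genes with a peak these shares were 25.2% and 14.3%. Peaks of the 8 markers of mature oligodendrocytes summed to 0, 2.63 and 0 kb in the neonatal and to 100.2, 103 and 126 kb in the adult libraries. Of 8 microglial markers, 1 had any peak, and it summed to 3.73 to 4.10 kb in adult libraries only. Summed neuronal markers covered 0 to 2.54 kb in neonatal and 7.12 to 10.7 kb in adult libraries. For astrocyte markers the ranges were 0 to 7.25 and 16.7 to 29.1 kb, for endothelial markers 0 to 2.20 and 4.52 to 7.5 kb, and for fibroblast markers 0 to 1.18 and 1.33 to 1.90 kb. The mature oligodendrocyte values moved with age in the same direction as the covered lengths given below, and their part in those differences was not tested.

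A pair of upstream sequences is shown to place the peaks relative to the start at a gene without and a gene with neonatal promoter peaks. They are the 250 bases before the RefSeq start of Nkx6-2, which had promoter peaks in adult libraries alone, and of the outermost start of Zeb2, which had promoter peaks in all 6 libraries. Both are from GRCm38.p6, on the minus strand, at chr7:139582798-139583047 and chr2:45117443-45117692. Capitals mark bases under a peak of at least 1 neonatal library.
Nkx6-2: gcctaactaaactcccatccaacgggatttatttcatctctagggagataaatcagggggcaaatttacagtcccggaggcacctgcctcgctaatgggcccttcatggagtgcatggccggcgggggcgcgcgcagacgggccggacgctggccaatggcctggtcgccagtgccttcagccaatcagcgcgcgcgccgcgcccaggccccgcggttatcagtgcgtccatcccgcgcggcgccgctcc
Zeb2: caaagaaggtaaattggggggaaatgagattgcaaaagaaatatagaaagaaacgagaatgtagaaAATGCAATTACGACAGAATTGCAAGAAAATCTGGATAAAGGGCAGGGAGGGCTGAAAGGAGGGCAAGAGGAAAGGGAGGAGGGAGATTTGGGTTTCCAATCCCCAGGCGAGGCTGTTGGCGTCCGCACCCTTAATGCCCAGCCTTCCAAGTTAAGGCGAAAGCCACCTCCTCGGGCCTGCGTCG
At Zeb2, 184 of the 250 bases lay under a peak of at least 1 neonatal library and 250 under a peak of at least 1 adult library. Under peaks of all 3 libraries of an age lay 0 bases in neonatal and 206 in adult cells. At Nkx6-2, 0 of the 250 bases lay under a peak of either age, so this window shows no difference between the ages. The adult peak at the start lay outside this window, inside the gene, with its upstream end at 139582794, 139582741 and 139582762 in adult replicates 1, 2 and 3. Sequences were found for 8 start sites of 5 of the genes (Nkx6-2, Zfp488, Zfp536, Zeb2 and Yy1) among the 32851 promoter sequences of RefSeq. Each sequence runs from 250 bases before to 50 bases after a start. The Nkx6-2 sequence held 32 CG dinucleotides and the Yy1 sequence 42, against a median of 7 over all promoters, while the outermost Zeb2 sequence held 9. The letters CTGGCAC (the Myrf motif), ACAAT (Sox), AAGATGGC (Yy1) and CAGCTG (an E-box) were searched on both strands. None of the first 3 was in any of the 8 sequences, and CAGCTG was in that of Zfp488. Over all promoters the shares holding them were 5.01% for CTGGCAC, 31.0% for ACAAT, 2.75% for AAGATGGC and 16.3% for CAGCTG.

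Covered length, the summed width of the peaks assigned to a gene, was larger in every adult library than in every neonatal library for 8 of the 8 genes. The same held for 60.0% of the 23433 genes with a peak. Each gene gave p = 0.1 in the exact two-sided permutation test of 3 against 3 libraries, the smallest value this design allows (Benjamini-Hochberg adjusted p = 0.166 over all 23433 genes). No difference below could therefore reach 0.05. The sizes differed widely. The median difference, adult minus neonatal, was 12.4 kb over the 8 genes and 0.661 kb over all genes. Ranked among all genes, the difference of Zeb2 was at position 2 and that of Zfp536 at 32. Myrf was at 228, Nkx6-2 at 395, St18 at 1043 and Zfp488 at 1172, while Yy1 was at 6083 and Carm1 at 6783. Covered length depends on how long a gene and its surroundings are, so the share of each gene body under peaks is given as well.

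**Figure D1:**
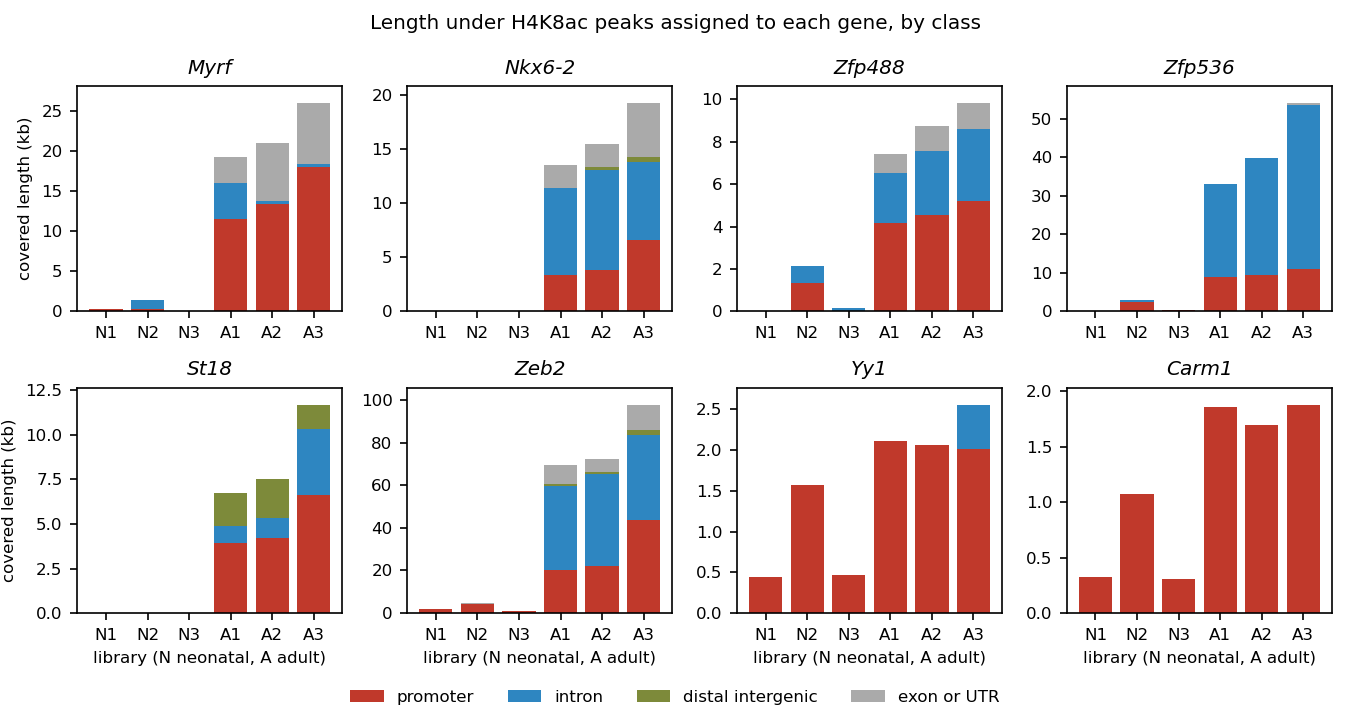
Stacked bars give the kb under peaks assigned to each gene in the 3 neonatal (N1 to N3) and 3 adult (A1 to A3) libraries, by annotated class; each panel has its own axis from 0. Adult bars stand above all neonatal bars in each panel, with promoter peaks alone at Carm1 and mostly introns at Zfp536.

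Myrf (chromosome 19, 10208271 to 10240777, minus strand, ENSMUSG00000036098.15) had almost no H4K8ac peak in neonatal cells and was covered along more than 50% of its length in adult cells. Its peaks covered 0.236, 1.36 and 0 kb in neonatal replicates 1, 2 and 3, and 19.3, 21.0 and 26.1 kb in adult replicates 1, 2 and 3. The ages did not overlap, and neonatal replicate 3 had no peak at all. The means were 0.531 ± 0.724 kb and 22.1 ± 3.54 kb (SD, n = 3 each; exact permutation p = 0.1), 41.7 times as much in adult cells. Without neonatal replicate 2 the ratio was 188, so the size of the ratio rests on that library. Peaks took up 52.5%, 54.9% and 74.5% of the gene body in the adult libraries and 0.726%, 4.17% and 0% in the neonatal libraries.

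The neonatal peaks at Myrf were short and lay at its start or in its first intron. Neonatal replicate 1 had a single promoter peak of 236 bp and neonatal replicate 2 one of 244 bp (10240526 to 10240769), with its summit 95 bp past the start. Neonatal replicate 2 had 3 further peaks, of 1.11 kb together, in intron 1 of 26. In adult replicate 1 a single peak of 6647 bp (10234131 to 10240777) ran from the start into that intron. It ranked 145 among the 72278 peaks of its list by p-value. The widest Myrf peak was 8.38 kb in adult replicate 2 and 7.86 kb in adult replicate 3. Promoter peaks covered 11.6, 13.4 and 18.0 kb in the adult libraries, and peaks that were neither promoter, intronic nor distal 3.20, 7.21 and 7.65 kb. The promoter class was not limited to the start of the gene. It reached 25.1, 25.8 and 27.3 kb past the start in adult replicates 1, 2 and 3. Intronic peaks covered 4.51, 0.417 and 0.389 kb, a class in which the ages overlapped, since neonatal replicate 2 had 1.11 kb. This overlap follows the class labels. In adult replicates 2 and 3 the places of those neonatal peaks lay under longer peaks of other classes. In adult replicate 2 these ran from -0.528 to 7.85 kb (promoter) and from 8.03 to 12.4 kb (neither promoter, intronic nor distal) from the start.

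Merged over the 6 libraries, the Myrf peaks formed 16 regions, of which 6 had a peak in every adult and no neonatal library. The longest, 11.993 kb (10232907 to 10244899), held the start and reached upstream of the gene. It was covered over 11.1, 11.6 and 11.7 kb in the adult libraries and over 0.236, 0.909 and 0 kb in the neonatal libraries. The second region with a neonatal peak lay 10.4 kb past the start (10228019 to 10232751). No Myrf region was marked in neonatal cells alone.

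The 5 genes whose pattern was most like that of Myrf were Tyro3, Actn4, Spns2, Tspan15 and Dnajc7. Likeness was the Euclidean distance over 12 values, the kb of promoter peaks and of other peaks in the 6 libraries. The distances were 4.40, 4.83, 5.53, 5.62 and 6.11 kb. Tyro3, a receptor tyrosine kinase, had 0.442 kb in neonatal and 19.8 kb in adult libraries on average.

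**Figure D2:**
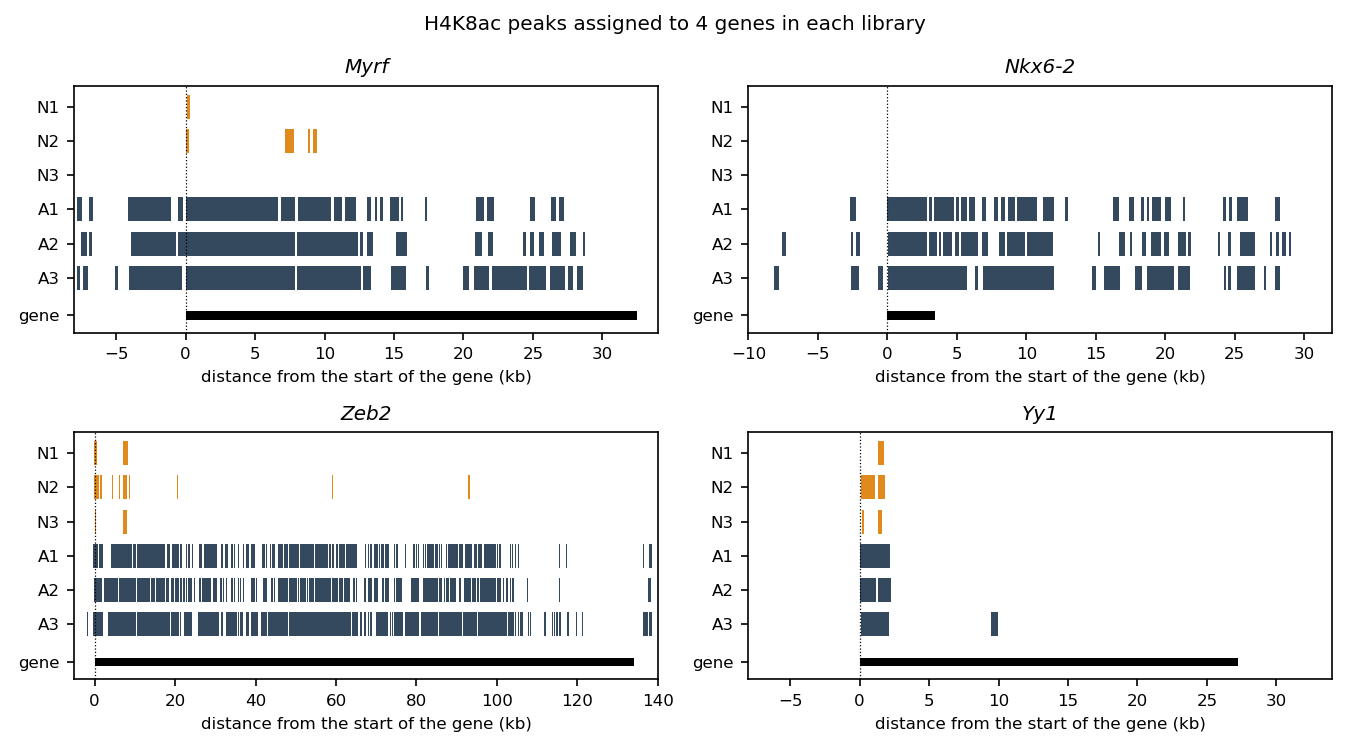
Bars are peaks assigned to Myrf, Nkx6-2, Zeb2 and Yy1 by distance in kb from the start of the gene, in the direction of transcription, 1 row per library (neonatal orange, adult dark) with the gene as a black bar. Neonatal peaks are few and lie within 9.46 kb of the start, except 3 of replicate 2 in Zeb2 that lie 20.4 to 93.2 kb past it, while adult peaks run along Myrf and Zeb2 and beyond Nkx6-2, and at Yy1 both ages stay near the start but for 1 peak of adult replicate 3.

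Nkx6-2 (chromosome 7, 139579376 to 139582797, minus strand, ENSMUSG00000041309.17) had no assigned peak in any neonatal library and 25, 28 and 16 peaks in the adult libraries. These covered 13.6, 15.5 and 19.3 kb, a mean of 16.1 ± 2.92 kb against 0 (SD, n = 3; exact permutation p = 0.1). The gene is only 3.42 kb long, and peaks took up 90.6%, 94.2% and 99.0% of it in adult replicates 1, 2 and 3. In the lists a value of 0 says that no peak passed the authors' threshold, not that the mark was absent. Promoter peaks covered 3.40, 3.83 and 6.60 kb. In adult replicate 1 the one at the start spanned 2834 bp (139579961 to 139582794), and its summit lay 228 bp past the start.

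Most of the other peaks assigned to Nkx6-2 lay inside its neighbour Inpp5a (chromosome 7, 139389074 to 139579652), which encodes an inositol phosphate phosphatase. Their centres fell within Inpp5a for 22, 23 and 12 of the peaks, with 10.2, 11.4 and 12.3 kb. The authors placed the intronic peaks in introns 9 to 14 of a transcript with 15 introns. The peaks reached 29.0 kb past the Nkx6-2 start. With peaks taken by position, within 3000 bp of the gene, Nkx6-2 covered 5.83, 6.11 and 6.83 kb in the adult libraries and 0 kb in the neonatal ones. The difference was then 6.26 kb in place of 16.1 kb.

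Zfp488 (chromosome 14, 33967070 to 33979034, minus strand, ENSMUSG00000044519.8) had a neonatal signal carried mainly by neonatal replicate 2. Its peaks covered 0, 2.14 and 0.158 kb in neonatal replicates 1, 2 and 3 and 7.45, 8.73 and 9.85 kb in the adult replicates. The ages did not overlap, with means of 0.766 ± 1.19 and 8.68 ± 1.20 kb (SD, n = 3 each; exact permutation p = 0.1). The ratio was 11.3, and 110 without neonatal replicate 2. Numbers of peaks did overlap, at 0, 5 and 1 in neonatal and 5, 4 and 6 in adult libraries. The widest measured 0.818 kb in neonatal replicate 2 and 2.47, 4.55 and 5.21 kb in adult replicates 1, 2 and 3. Promoter peaks were called in neonatal replicate 2 alone among the neonatal libraries (1.32 kb) and covered 4.15, 4.55 and 5.21 kb in the adult libraries. The restriction to neonatal replicate 2 follows the class labels. The 0.158 kb peak of neonatal replicate 3, labelled intronic, lay within a promoter peak of neonatal replicate 2. Promoter peaks lay at 33975260 to 33975882 in neonatal replicate 2 and at 33975236 to 33976924 in adult replicate 1. Of 5 merged regions, 2 had a neonatal peak, and both of these were in every adult library.

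Zfp536 (chromosome 7, 37318023 to 37774039, minus strand, ENSMUSG00000043456.17) is the longest of the 8 genes at 456 kb, and its adult peaks were spread along its introns. Neonatal libraries had 0, 9 and 1 peaks with 0, 2.92 and 0.204 kb. Adult libraries had 57, 58 and 60 peaks with 33.2, 39.8 and 54.3 kb. The means were 1.04 ± 1.63 and 42.4 ± 10.8 kb (SD, n = 3 each; exact permutation p = 0.1). Adult over neonatal the ratio was 40.7, and 416 without neonatal replicate 2. Introns held 24.1, 30.4 and 42.7 kb in the adult libraries and 0, 0.593 and 0 kb in the neonatal libraries. Promoter peaks held 8.93, 9.38 and 10.9 kb in adult and 0, 2.33 and 0.204 kb in neonatal libraries. Some of them lay far inside the gene, as far as 208.1, 208.6 and 208.9 kb past the start in adult replicates 1, 2 and 3. Promoters held 79.7% of the length in neonatal replicate 2 and 100% in neonatal replicate 3, which had a single 204 bp peak. They held 26.9%, 23.6% and 20.1% in the adult libraries. By number, promoter peaks were 85.2%, 67.5% and 88.8% of all peaks in neonatal replicates 1, 2 and 3. In adult replicates 1, 2 and 3 they were 43.9%, 43.1% and 40.4%, so a lower adult share was not particular to Zfp536.

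A 12.003 kb region in an intron of Zfp536 (37743969 to 37755971), centred 24.1 kb past the start, was covered over 8.04, 9.73 and 11.8 kb in the adult libraries. It had no neonatal peak. A 597 bp promoter peak of neonatal replicate 2 (37769828 to 37770424) lay within a 6703 bp peak of adult replicate 1 (37767348 to 37774050). By position, with peaks counted whatever gene the authors gave them, Zfp536 covered 0.738, 5.18 and 0.372 kb in neonatal and 67.2, 78.4 and 107 kb in adult libraries, which raised the difference from 41.4 to 82.2 kb. Even so, peaks took up 14.5% to 23.1% of the gene body in adult libraries, less than at Myrf.

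St18 (chromosome 1, 6487231 to 6860940, plus strand, ENSMUSG00000033740.17) had no peak in the 3 neonatal libraries. In the adult libraries 15, 12 and 18 peaks covered 6.76, 7.55 and 11.7 kb, a mean of 8.67 ± 2.65 kb (SD, n = 3; exact permutation p = 0.1). Of this 374 kb gene, peaks took up 0.766%, 0.751% and 1.78% of the gene body. Promoter peaks covered 3.94, 4.21 and 6.60 kb, and in each adult library some of these peaks lay about 318 kb past the start. The one with the largest fold in adult replicate 1 spanned 2664 bp (6485633 to 6488296) with its summit at -1072 bp from the start. Distal intergenic peaks added 1.86, 2.23 and 1.39 kb, and introns 0.960, 1.11 and 3.71 kb. No St18 peak was among the 7353 strongest of its list by p-value, 7353 being the length of the shortest list. The best one ranked 13489, 13552 and 10730 in the adult libraries. Myt1, a zinc finger gene of the same family, had 2.04, 7.12 and 0.646 kb in neonatal and 0.166, 0 and 0.670 kb in adult libraries. The ages overlapped at Myt1 (exact permutation p = 0.2, adjusted p = 0.305 over all genes), where the difference of -2.99 kb ranked 23432 of 23433. Per covered Mb, every neonatal library lay above every adult one at Myt1. The authors' deposited table lists 5 sites at Myt1, all negative, with a median log2 of -1.498. Myt1l, its relative, had 0.562, 2.25 and 0 kb in neonatal and 0, 0.150 and 0.494 kb in adult libraries, which also overlapped. Both sites of Myt1l in the authors' deposited table were negative, with a median log2 of -1.96.

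Zeb2 (chromosome 2, 44983512 to 45117442, minus strand, ENSMUSG00000026872.18) had promoter peaks at both ages and was covered along more than 50% of its length in adult cells. Neonatal replicates 1, 2 and 3 had 2, 9 and 2 peaks with 1.81, 4.51 and 1.19 kb. Adult replicates had 79, 80 and 48 peaks with 69.4, 72.2 and 97.8 kb. The means were 2.504 ± 1.76 and 79.8 ± 15.7 kb (SD, n = 3 each; exact permutation p = 0.1), a ratio of 31.9, or 53.1 without neonatal replicate 2. Peaks took up 51.5%, 53.3% and 71.4% of the gene body in adult libraries and 0.891% to 3.23% in neonatal libraries. Adult replicate 3 had fewer but longer peaks than the other adult libraries, the longest of 15.4 kb against 7.04 and 4.24 kb.

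Zeb2 peaks merged into 49 regions, of which 24 were in every adult library and no neonatal one, and 2 were in all 6 libraries. The outer of these 2 held the start of the gene, and the inner lay inside the gene, centred 6.34 kb past the start. The outer one (45115232 to 45117828) was covered over 0.710, 1.75 and 0.154 kb in neonatal and 2.33, 2.03 and 2.60 kb in adult libraries. The inner one (45107104 to 45115094) was covered over 1.10, 1.82 and 1.04 kb in neonatal and 5.97, 7.51 and 6.99 kb in adult libraries. It holds promoter peaks of 1051 bp in neonatal replicate 2 (45109257 to 45110307) and 2736 bp in adult replicate 1 (45108085 to 45110820). The third of 10 introns alone carried 37.7, 41.6 and 35.4 kb in the adult libraries. In neonatal cells it carried 0.192 kb, in replicate 2. The longest region, of 17.1 kb (45051938 to 45069067), lay 56.9 kb past the start and had a peak of 0.192 kb in neonatal replicate 2. Some inner regions were annotated as promoter relative to other Zeb2 transcripts, so the promoter class at this gene, 20.1, 22.04 and 43.6 kb in adult libraries, is not limited to its first exon. Zeb1, the related gene, had 1.86, 3.31 and 1.40 kb in neonatal and 1.497, 1.28 and 1.78 kb in adult libraries, which overlapped (exact permutation p = 0.4). Smad7, an inhibitor of BMP signalling that Zeb2 is known to activate, had 0.711, 3.98 and 0.691 kb in neonatal and 17.0, 15.03 and 23.2 kb in adult libraries.

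Yy1 (chromosome 12, 108792945 to 108820148, plus strand, ENSMUSG00000021264.12) had a promoter mark in all 6 libraries and nothing beyond it but 1 intronic peak. Its peaks covered 0.447, 1.57 and 0.470 kb in neonatal and 2.11, 2.06 and 2.56 kb in adult libraries. The means were 0.830 ± 0.644 and 2.25 ± 0.273 kb (SD, n = 3 each; exact permutation p = 0.1), a ratio of 2.70, or 4.90 without neonatal replicate 2. The number of peaks was 1 or 2 in every library. One merged region of 2.24 kb (108792988 to 108795230) held all promoter peaks. Within it, a peak of neonatal replicate 2 (108794273 to 108794806) had its summit 1457 bp past the start, and the peak of adult replicate 1 (108792988 to 108795101) had it 1489 bp past the start. The Yy1 peak of neonatal replicate 2 ranked 305 in its list, higher than any other peak of the 8 genes in that library. The intronic peak, of 0.551 kb, was in adult replicate 3.

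Carm1 (chromosome 9, 21546894 to 21589467, plus strand, ENSMUSG00000032185.15) had assigned peaks in all 6 libraries, all of them promoter peaks. They covered 0.322, 1.07 and 0.305 kb in neonatal and 1.86, 1.70 and 1.88 kb in adult libraries. The means were 0.566 ± 0.438 and 1.81 ± 0.0999 kb (SD, n = 3 each; exact permutation p = 0.1), a ratio of 3.20, or 5.78 without neonatal replicate 2. The peak at the start was 322, 654 and 305 bp wide in neonatal replicates 1, 2 and 3 and 1105, 994 and 996 bp wide in the adult replicates. Its summit lay 70 to 158 bp past the start of the assigned transcript in all 6 libraries. That transcript was not the same in every library, so the distances need not be from a common start. The peak lay at 21546902 to 21547555 in neonatal replicate 2 and at 21546810 to 21547914 in adult replicate 1. A second region before the start (21545599 to 21546553) had peaks in neonatal replicate 2 and in all adult libraries. By position, whatever gene the authors gave a peak, Carm1 covered 0.322, 1.47 and 0.305 kb in neonatal and 2.42, 2.93 and 3.36 kb in adult libraries, which raised the difference from 1.25 to 2.20 kb. Prmt1, another arginine methyltransferase, had 0.418, 0.473 and 0.183 kb in neonatal and 0.705, 0.857 and 0.723 kb in adult libraries, and Prmt5 had 0, 0.447 and 0 kb and 0.400, 0.244 and 0.606 kb, which overlapped.

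Promoter peaks alone set 2 of the 8 genes apart. Nkx6-2 and St18 had them in adult libraries alone, and in all 3 of those, a pattern of 9.60% of the 23433 genes. Zeb2, Yy1 and Carm1 had one in all 6 libraries, as did 17.1% of all genes. By class label, Myrf and Zfp536 had a promoter peak in 2 neonatal libraries and Zfp488 in 1, besides all adult libraries. Over the 8 genes the peaks merged into 186 regions. Of these, 69 were in every adult and no neonatal library, 4 were in all 6 libraries, and 73 were in a single adult library. All 15 regions with a neonatal peak were also in all 3 adult libraries. These counts of regions, here and for single genes above, were not set beside those over all regions of the series. The adult lists were far longer than the neonatal ones, so the counts describe these regions and set no gene apart.

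When the covered length of a gene was divided by the length that all peaks of the library cover, the 8 genes split into 2 kinds. This quantity was chosen after the data had been seen. Myrf, Nkx6-2, Zfp488, Zfp536, St18 and Zeb2 were higher in every adult than in every neonatal library, 6 of 8 genes against 25.2% of all genes. Yy1 and Carm1 were higher in every neonatal library, 2 of 8 against 14.3% of all genes. Both covered more kb in every adult library, and all peaks together covered 7.73 times as much in adult libraries. Their lower adult values are therefore shares of a larger total, not a smaller covered length. Zeb2 went from 0.483 to 1.63 kb per covered Mb, Myrf from 0.0594 to 0.454, Zfp536 from 0.1002 to 0.861 and Zfp488 from 0.0745 to 0.179 (means of 3 libraries). Yy1 had 0.150, 0.115 and 0.202 kb per covered Mb in neonatal and 0.0505, 0.0466 and 0.0420 in adult libraries. Carm1 had 0.108, 0.0781 and 0.131 in neonatal and 0.0444, 0.0384 and 0.0309 in adult libraries. Each gene again gave the exact permutation p = 0.1 (adjusted p = 0.253 over all genes). At Zfp488 the gap was small, from 0.156 in neonatal replicate 2 to 0.162 in adult replicate 3.

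**Figure D3:**
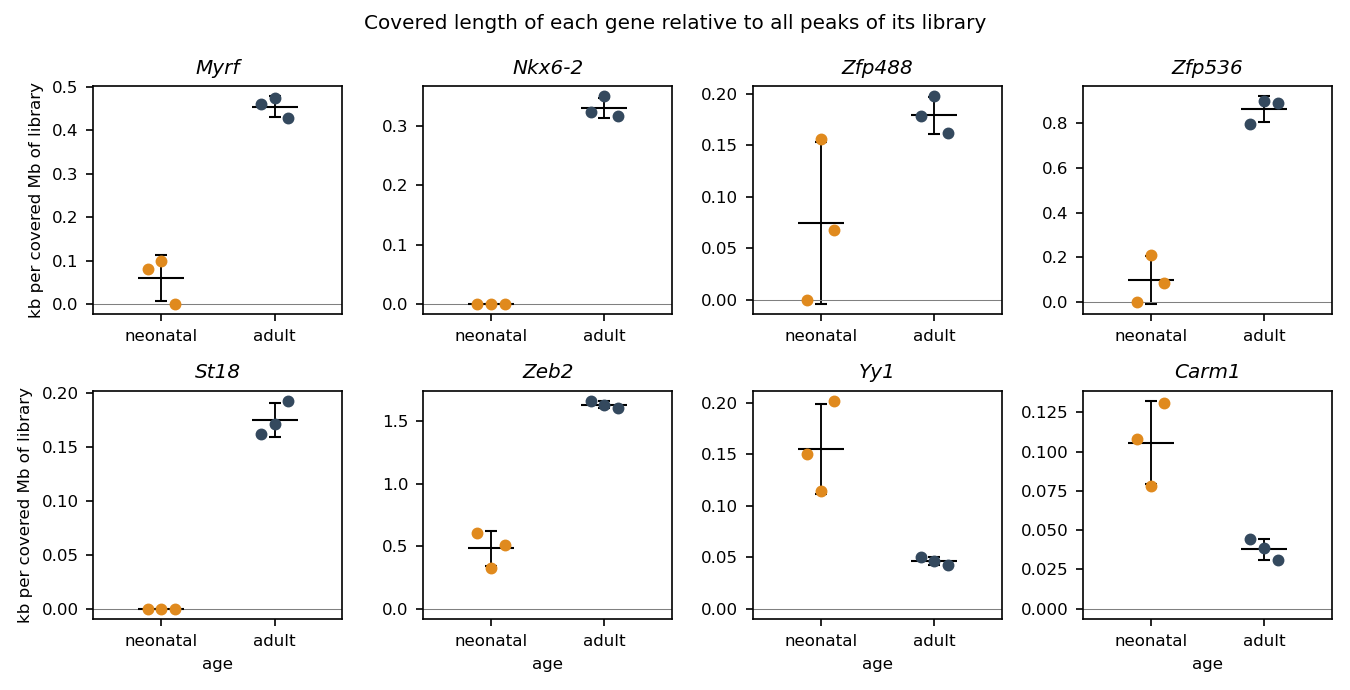
Points give the covered kb of each gene per Mb covered by all peaks of its library, for 3 neonatal and 3 adult libraries; the horizontal line is the mean and the error bar the SD, and each panel has its own axis. Adult points lie above neonatal points in 6 panels and below them for Yy1 and Carm1.

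Among the 7353 strongest peaks of each library, 5 of the 7 genes with any such peak (Myrf, Nkx6-2, Zfp536, Zeb2 and Carm1, but not Zfp488 and Yy1) had more covered kb in every adult than in every neonatal library. This was so for 34.4% of the 10855 genes with a peak among them, and the reverse for 4.62%. Myrf then had 0.236, 0.244 and 0 kb in neonatal and 9.07, 12.7 and 16.3 kb in adult libraries. Zeb2 had 1.81, 1.05 and 1.19 kb and 4.90, 12.4 and 25.01 kb. Yy1 overlapped, with 0.447, 1.57 and 0.470 kb in neonatal and 2.11, 0.965 and 2.01 kb in adult libraries. Zfp488 overlapped too, since adult replicate 2 had no peak of it at that length. Differences for Myrf, Nkx6-2, Zfp488, Zfp536, Zeb2, Yy1 and Carm1 were 12.5, 3.77, 4.03, 11.02, 12.7, 0.866 and 0.605 kb.

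The authors' deposited table of differential sites, most of them 400 bp wide, lists 109 sites at the 8 genes, all with a positive log2 fold change. The sign was taken to mean adult over neonatal, since 99.99% of positive sites of the authors' deposited table overlapped an adult peak and 27.9% a neonatal one. All 8 genes had at least 1 such site in the authors' deposited table, as did 65.1% of genes with a peak. Of all 43888 sites in the authors' deposited table, 99.4% were positive, so direction alone sets nothing apart. By the authors' deposited table, the median log2 fold change was 3.24 over the 109 sites and 2.41 over all listed sites, and 85 of the 109 lay above the latter. Of the 109 sites in the authors' deposited table, 96 overlapped no neonatal peak. Over all positive sites of the authors' deposited table, 27.9% overlapped a neonatal peak, so most of those sites overlapped none either. Sites at 1 gene are not independent of each other.

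By gene, the authors' deposited table gave a median of 4.96 over 11 sites of Nkx6-2, 3.54 over 12 of Myrf and 3.37 over 9 of St18. It was 3.14 over 33 sites of Zeb2, 3.05 over 38 of Zfp536 and 1.62 over 3 of Zfp488 in the authors' deposited table. For Carm1, with 2 sites, the authors' deposited table gave 1.55, and for Yy1, with 1 site, 1.31. None of the Yy1 and Carm1 sites in the authors' deposited table reached the median of all sites. Promoter sites had lower values in general, with a median of 1.86 against 2.87 for introns in the authors' deposited table. The promoter medians of Nkx6-2, St18, Zeb2, Myrf and Zfp536 were 5.74, 3.55, 2.82, 2.55 and 2.38 in the authors' deposited table, all above 1.86. That of Zfp488 was 1.62 in the authors' deposited table, below it, as were Yy1 and Carm1. The medians of St18, Zeb2, Myrf and Zfp536 include promoter sites far inside the gene. At the promoter site nearest the start, the authors' deposited table gave 5.16, 4.45, 1.85, 2.16 and 2.19 for these 5 genes, Nkx6-2 first. For Zeb2, this value and the 1.66 at 7.77 kb in the authors' deposited table lay below 1.86. Its other promoter sites lay 50.6 to 99.2 kb past the start.

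Values at the 12 sites of Myrf in the authors' deposited table ran from 1.68 to 6.07 with no steady order along the gene. At the start (10240412 to 10240811) the authors' deposited table gave log2 2.16 (adjusted p = 2.24e-06), where 2 neonatal libraries had a peak. In the first intron (10231722 to 10232121) the authors' deposited table gave log2 3.59 (adjusted p = 1.50e-13), its smallest p-value at this gene. Further in (10227419 to 10227818), a site chosen after its value was seen and where no neonatal library had a peak, the authors' deposited table gave log2 6.07 (adjusted p = 5.81e-07). Still further in, at 15.5, 17.4 and 21.1 kb past the start, the authors' deposited table gave log2 1.68, 2.20 and 2.55, and upstream of the gene, at -6.82 kb, log2 5.59.

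The site of smallest p-value at Nkx6-2 was in the promoter (139582312 to 139582711), where the authors' deposited table gave log2 5.16 and adjusted p = 1.69e-16. The largest value of the 8 genes in the authors' deposited table, log2 7.75, was at a site assigned to Nkx6-2 that lies in Inpp5a (139572195 to 139572594). At the St18 promoter (6486908 to 6487307) the authors' deposited table gave log2 4.45 (adjusted p = 5.98e-10). For Zeb2 the authors' deposited table gave log2 4.41 (adjusted p = 1.31e-11) at an inner site annotated as promoter (45022839 to 45023238). For an intronic site of Zfp536 (37543471 to 37543870), 230 kb past the start, it was log2 3.77 (adjusted p = 6.70e-10) by the authors' deposited table. Zfp488 reached log2 2.88 (adjusted p = 4.71e-05) at 33970515 to 33970914, again by the authors' deposited table. The Yy1 site (108794240 to 108794639) reached log2 1.31 (adjusted p = 0.00745) by the authors' deposited table. The Carm1 site of smallest p-value (21546822 to 21547221) reached log2 1.503 (adjusted p = 0.000309) by the authors' deposited table. Both overlapped a peak in all 6 libraries.

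**Figure D4:**
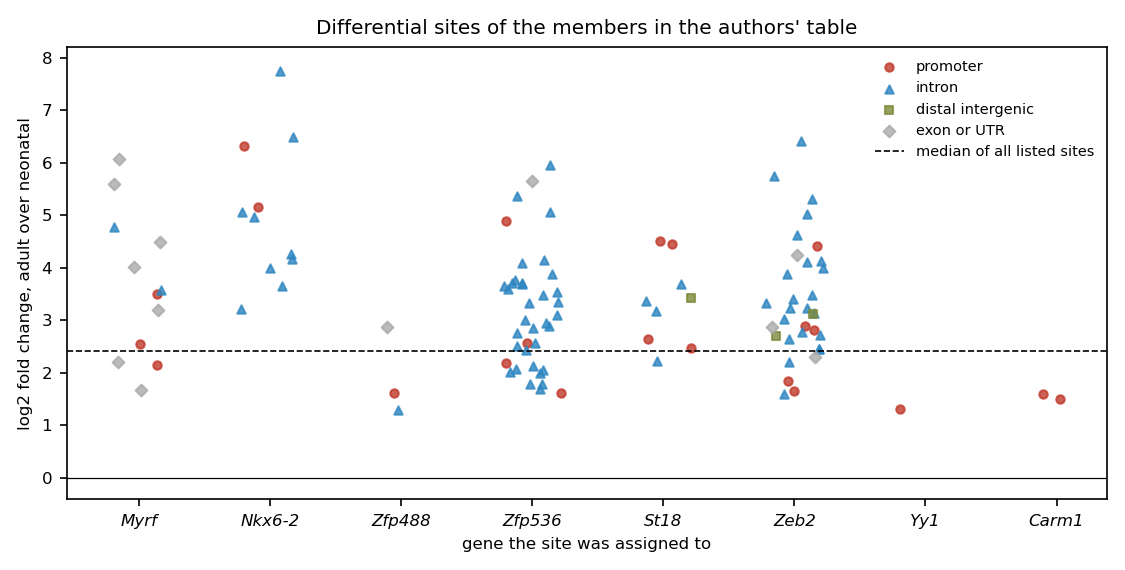
Each point is a differential site of the authors' deposited table by the gene it was assigned to, with its log2 fold change (adult over neonatal) and its class; the dashed line is the median of all listed sites, 2.41. Points of Yy1 and Carm1 lie below the line, all 11 points of Nkx6-2 above it, and those of the other genes on either side.

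Other regulators of the same step were read from 3 lists. Of 20 positive regulators, 19 had a peak, 15 had every adult above every neonatal library in covered kb, and none the reverse, where the share over all genes was 60.0%. Among them Chd7, a chromatin remodeller, had 2.51 ± 1.39 and 41.4 ± 10.96 kb (neonatal and adult, SD, n = 3 each). Olig1 had 1.34 ± 0.927 and 16.8 ± 1.97 kb, and Sox10 1.58 ± 1.29 and 12.7 ± 3.59 kb, both being transcription factors of the whole lineage. Of 16 inhibitory regulators, 10 had every adult library above every neonatal one, a share near that over all genes, among them the receptor gene Notch1 with 4.77 ± 5.04 and 19.7 ± 2.45 kb. Tmem98, whose protein binds Myrf and keeps it from being cut, had 0, 0.585 and 0.213 kb in neonatal and 5.09, 6.80 and 7.67 kb in adult libraries. All 16 genes of a list of Myrf targets and myelin genes lay higher in every adult library, with the largest differences at Ugt8a, Fa2h and Mbp (35.0, 34.9 and 28.1 kb). The median differences were 3.33, 0.817 and 13.3 kb for the positive, inhibitory and myelin lists, against 0.661 kb over all genes.

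Per covered Mb of the library, every adult library lay above every neonatal one for 3 of 19 positive, 1 of 16 inhibitory and 15 of 16 myelin genes, against 25.2% of all genes. Every neonatal library lay above for 7, 10 and 0 of them, against 14.3% of all genes. Promoter peaks in all 6 libraries were found for 9, 11 and 1 genes of the lists, against 17.1% of all genes. Promoter peaks in all adult libraries alone were found for 0, 0 and 8, against 9.60%. Hdac1, the deacetylase that Yy1 is known to bring to its targets, had 0, 0.273 and 0 kb in neonatal and 1.16, 1.41 and 1.65 kb in adult libraries. Of the Yy1 targets Id4 and Tcf7l2, Id4 had 0.378, 0.152 and 0 kb and 0.587, 0.525 and 0.171 kb, which overlapped, and Tcf7l2 had 1.12, 5.39 and 0.540 kb and 9.25, 9.46 and 10.7 kb. Olig2, the partner of Zfp488, had 1.41, 5.79 and 0.908 kb in neonatal and 10.0, 9.95 and 14.4 kb in adult libraries. Nkx2-2, a homeodomain gene related to Nkx6-2 in function, had 1.11, 2.17 and 0 kb in neonatal and 5.88, 4.36 and 8.02 kb in adult libraries, while Nkx6-1 had 0.259 kb in neonatal replicate 2 and no peak in any other library.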

How the data were processed

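The members and gene lists were chosen with earlier results of these data known. Neonatal and adult groups follow the sample titles, and replicates are those the titles number. Per the submitters' processing notes, the tools named are Trim Galore, Bowtie2 2.4.5, SAMtools, deepTools, MACS2, DiffBind and ChIPseeker, with genome build GRCm38. Their roles and settings are not given in the sources used here. The deposited peak lists are 1 per library.

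Each deposited peak carries, per the file headers, a fold over background (a ratio), a −log10 p-value, a −log10 q-value, a score, and the annotated class, gene and distance to the start. Promoter peaks are those the authors annotated as promoter, within 3000 bp of a start. The authors' deposited table of sites gives each site a log2 fold change with its raw and adjusted p-value. Its normalisation is not given in the sources used here. Deposited peak starts counted from 0 in 61204 of 61204 peaks that could be checked, and positions are printed counted from 1. RefSeq gene coordinates and sequences (GRCm38.p6) were used.

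Covered length was the summed width of the peaks whose gene_name was a member. Adult and neonatal libraries were compared for every gene with a peak by an exact two-sided permutation test over 20 arrangements, with Benjamini-Hochberg adjustment over all genes. Each site took the gene and class of the deposited peak sharing the most bases with it (bedtools 2.31.1, at least 1 bp). The background level was solved from each fold and p-value under a Poisson model, taking the commonest value of a list. It matched 28.7% to 58.1% of the peaks of each list within 1%, and it describes depth only under that model. Widths and counts of peaks depend on depth and on the authors' threshold, and peaks were ranked by p-value within their list. All 8 members were named. From each of 3 regulator lists at most 3 genes with the largest differences were named, with partners of members from a list. For each member the site with the smallest p-value was named, and at each age the promoter peak with the largest fold. That choice sets folds of 3 libraries side by side and always took neonatal replicate 2 and adult replicate 1, the latter with the lowest background level (1.77), so it locates peaks and ranks no library. Scripts used Python 3.11.15, numpy 2.4.6, pandas 2.3.3, scipy 1.17.1 and matplotlib 3.10.9, and the test was tested on simulated data. Alternatives are in the closing section.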

Additional observations from a re-analysis of the deposited data

How the results depend on the processing

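Over all alternatives, each of the 8 differences in covered kb kept its direction except for Yy1 and Carm1. Those 2 reversed in kb per covered Mb of the library, an alternative added after seeing the data, at -0.109 and -0.0678. Leaving out a library or using the replicate block could not change a direction, because every adult library lay above every neonatal one. Nor could a subset of the peaks do so at Nkx6-2 and St18, which had no neonatal peak. Leaving out 1 library at a time, the differences ranged from 19.6 to 23.0 kb for Myrf, 14.5 to 17.4 for Nkx6-2, 7.32 to 8.60 for Zfp488, 35.4 to 46.0 for Zfp536, 7.15 to 9.62 for St18, 68.3 to 82.5 for Zeb2, 1.22 to 1.79 for Yy1 and 1.12 to 1.499 for Carm1. The number of genes with every adult above every neonatal library, 8 of 8, was 5 among the strongest peaks (of 7 with any), 5 with intronic peaks only and 2 with distal intergenic peaks only. Fewer peaks enter there, and some genes have none of a class. Shares over all genes were not computed for intronic or distal peaks alone, so those counts set no gene apart. At Myrf, the long peaks over the first intron in adult replicates 2 and 3 were not labelled intronic. With a promoter peak in every adult and no neonatal library there were 2 genes, and 1 among the strongest peaks. By position the difference moved by over 1.5 times for Nkx6-2 (6.26 kb), Zfp536 (82.2 kb) and Carm1 (2.20 kb). The 109 sites became 93 at an adjusted p under 0.005 and 148 by position. St18 gave no value among the strongest peaks, nor did genes without peaks of a class. With the replicate block, an exact sign-flip test on the 3 same-numbered pairs, the differences were the same (21.6 kb for Myrf) and p was 0.25, the smallest possible. Deviations of same-numbered libraries correlated at -0.0586, 0.0149 and 0.0812 over genes, so the numbers were not taken as pairs. Read depth was not available, and a missing peak gives no upper limit to the mark.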
